A study of Mus musculus with 6 samples.

Results

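Type 1 conventional dendritic cells (cDC1) were examined in single-cell RNA sequencing data of livers from 3 WT mice and 3 SIRT7 KO mice, aged 5 to 6 months. Mice lacking the histone deacetylase SIRT7 are used in the study as a model that develops steatohepatitis on a chow diet, and the labels of the WT animals name no further allele or agent. Hepatocytes and nonparenchymal cells from a perfused liver of each mouse were mixed in equal numbers before the droplet step, so the cell numbers of a library do not give the makeup of the organ. A cell was taken as cDC1 when Xcr1 or Clec9a and also H2-Ab1 were above 0 and when Clec4f, Vsig4, Siglech, Cd3e, Ncr1 and Cd79a were all at 0. This selection on measured values gave 314 of 11610 cells. By mouse it gave 9, 13 and 94 cells in WT 1 to WT 3, and 112, 72 and 14 cells in SIRT7 KO 1 to SIRT7 KO 3.

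cDC1 are a small lineage of antigen-presenting cells that depend on the transcription factors IRF8 and BATF3 and on the growth factor receptor FLT3. They take up material from dead cells through the receptor CLEC9A, present it on MHC class I to CD8 T cells, a step called cross-presentation, and meet XCL1-secreting T and NK cells through the chemokine receptor XCR1. In the liver they lie beside a larger population of Kupffer cells, the resident macrophages, and beside type 2 conventional dendritic cells, many of which carry the lectin CD209A.

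The 6 genes set to 0 removed most candidates. Xcr1 or Clec9a had a unique molecular identifier (UMI, 1 counted RNA molecule) in 756 cells, of which 724 also had H2-Ab1, and 410 of these were dropped by the excluded genes. The Kupffer cell genes Clec4f and Vsig4 had UMIs in 307 and 288 of the dropped cells, whereas the T cell gene Cd3e, the plasmacytoid gene Siglech, the B cell gene Cd79a and the NK cell gene Ncr1 had UMIs in 67, 49, 16 and 13. On the near side of the threshold, 4 members held a single H2-Ab1 UMI. On the far side, 15 cells met every condition but H2-Ab1, and in them Naaa, Flt3 and Batf3 were at 0 while Cst3 averaged 7.32 counts per 10000 UMIs of the cell (CP10K). A single UMI of an excluded gene dropped 57 cells, whose mean of Naaa was 7.21 CP10K, close to the 7.80 CP10K of the members. The 353 cells dropped by 2 or more such UMIs averaged 2.70 CP10K of Naaa and 34.8 CP10K of the complement gene C1qa.

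The label was checked against cDC1 genes that the selection did not use. Irf8, the transcription factor that sets cDC1 fate, had a UMI in 85.7% of the 314 members and averaged 14.8 CP10K over the 6 mice, compared with 1.53 CP10K in 240 cells selected for Cd209a in place of Xcr1 and Clec9a, and 1.45 CP10K in all other cells. Naaa, a lysosomal lipid amidase, averaged 8.60 CP10K in cDC1 and 0.928 CP10K in the Cd209a cells. Tlr3, a sensor of double-stranded RNA, averaged 2.84 and 0.0753 CP10K, and Wdfy4, needed for cross-presentation, averaged 4.11 and 0.851 CP10K. All 4 genes were thus higher in the members, as the label calls for. Flt3 was at 1.16 and 1.004 CP10K and Batf3 at 2.50 and 1.06 CP10K, so Flt3 set both dendritic cell classes apart from the other cells, at 0.0861 CP10K, more than from each other. The protease inhibitor Cst3 averaged 174 CP10K in cDC1, 31.5 CP10K in the Cd209a cells and 10.4 CP10K elsewhere. Fcer1g, the signalling chain of Fc receptors, ran the other way, with 6.41 CP10K in cDC1 and 19.0 CP10K in the Cd209a cells. Because the classes were chosen on the same cells, these levels are descriptions and were not tested.

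**Figure D1:**
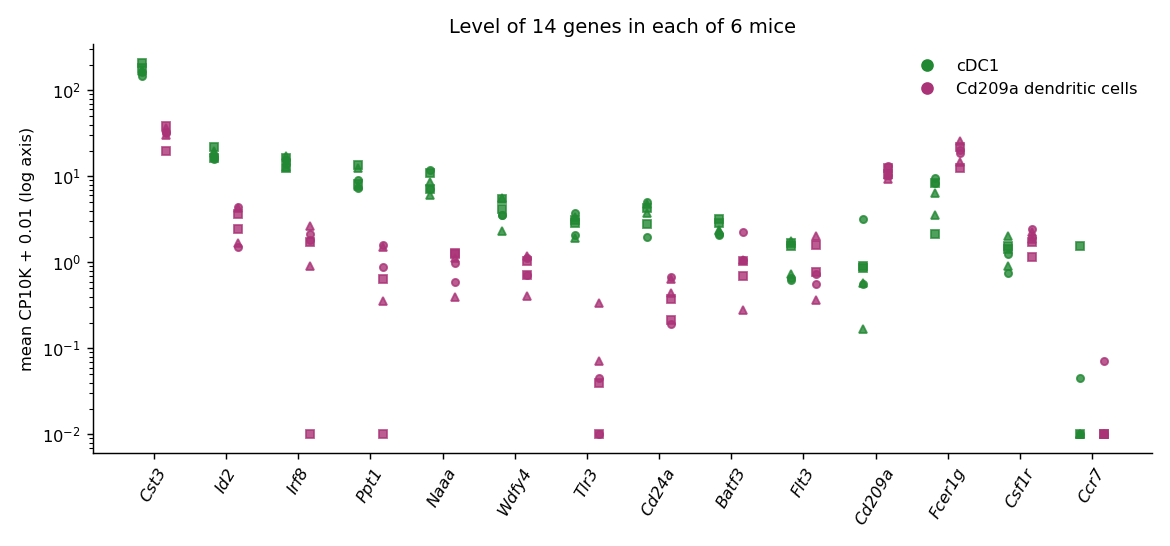
Mean level of 14 genes in cDC1 and in Cd209a dendritic cells of each of the 6 mice, as mean CP10K plus 0.01 on a log axis; each point is a mouse. Irf8, Naaa and Tlr3 lay higher in cDC1, with means over the mice of 14.8, 8.60 and 2.84 CP10K against 1.53, 0.928 and 0.0753 CP10K in the Cd209a cells.

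The members were not uniform. Both Xcr1 and Clec9a were detected in 133 cells, Xcr1 alone in 78 and Clec9a alone in 103. A single UMI of the 2 genes together carried 124 members into the set, and 190 had 2 or more. The members with 2 or more UMIs averaged 10.3 CP10K of Naaa, 17.8 CP10K of Irf8 and 200 CP10K of Cst3. Those with a single UMI averaged 4.02, 10.1 and 130 CP10K of the same genes. Transcripts of other myeloid cells ran in the opposite order: C1qa averaged 0.625 CP10K in the first set and 7.98 CP10K in the second, the macrophage lysozyme gene Lyz2 6.35 and 19.5 CP10K, and Cd209a 0.0148 and 1.77 CP10K. In members with Clec9a alone, Naaa was at 2.89 CP10K and C1qa at 9.45 CP10K. The single-UMI members thus held less of the cDC1 genes and more macrophage RNA, and their share differed between mice, with 22.2%, 30.8% and 22.3% in WT 1 to WT 3 and 57.1%, 41.7% and 21.4% in SIRT7 KO 1 to SIRT7 KO 3.

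The depth of the members differed between mice. The median member held 7795, 10170 and 3896.5 UMIs in WT 1 to WT 3 and 2243.5, 3071 and 9729 UMIs in SIRT7 KO 1 to SIRT7 KO 3, so the libraries with few members had the deepest ones. After each member was thinned to 1000 UMIs, which left out 1 cell, the median number of genes per member ranged only from 546.5 to 580. Of the members, 2 carried a barcode that also occurred in another mouse. In the mean of a mouse, a single UMI was worth between 0.0273 and 0.143 CP10K.

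The share of cDC1 among all cells was 0.724% in WT 1 (95% Wilson interval 0.381 to 1.37), 1.39% in WT 2 (0.816 to 2.37) and 8.59% in WT 3 (7.07 to 10.4). In the SIRT7 KO mice it was 1.997% (1.66 to 2.40), 3.30% (2.63 to 4.14) and 2.54% (1.52 to 4.21). All 3 SIRT7 KO mice therefore lay between WT 2 and WT 3. The means were 2.61% ± 0.657 in SIRT7 KO and 3.57% ± 4.36 in WT (SD, n = 3 each), a difference of -0.957 percentage points that was far smaller than the spread between the WT mice (two-sided exact permutation test, p = 1, smallest possible 0.1). Without WT 3 the difference was +1.55 points, and with no excluded gene it was +1.42 points (exact p = 0.7). Hepatocytes, counted as cells with Alb above 100 CP10K and no Ptprc, made up 39.3%, 32.4% and 0.823% of the WT libraries and 0.820%, 0% and 16.8% of the SIRT7 KO libraries, and the part of this in the cDC1 shares was not tested. The 0% is 0 of 2179 cells, which allows a share of up to 0.138%.

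Among conventional dendritic cells, that is cDC1 plus Cd209a cells, cDC1 made up 47.4% (Wilson interval 27.3 to 68.3), 61.9% (40.9 to 79.2) and 70.7% (62.4 to 77.7) in the WT mice. The SIRT7 KO mice had 51.9% (45.2 to 58.4), 53.3% (44.9 to 61.5) and 46.7% (30.2 to 63.9), a range that overlaps that of WT. The difference in means was -9.37 points (50.6% ± 3.50 in SIRT7 KO against 59.98% ± 11.8 in WT, SD, n = 3 each, two-sided exact permutation test, p = 0.3). Intervals cover counting error only.

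**Figure D2:**
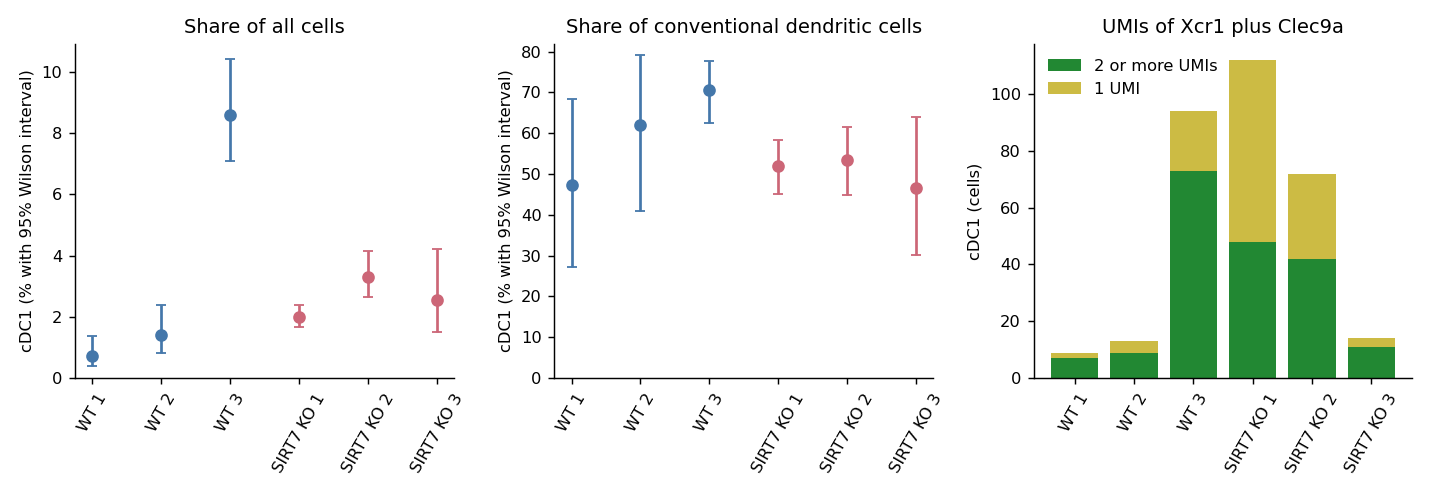
Left, share of cDC1 among all cells of each mouse in percent; middle, share of cDC1 among conventional dendritic cells in percent, with 95% Wilson intervals; right, number of members of each mouse with 1 UMI or with 2 or more UMIs of Xcr1 plus Clec9a. WT 3 stands apart with 8.59% of all cells, and the SIRT7 KO mice lie between 1.997% and 3.30%.

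The deleted gene was checked first. Sirt7 averaged 0.333, 1.07 and 0.409 CP10K in the cDC1 of WT 1 to WT 3 (1, 10 and 16 UMIs), and 0.0296, 0.0531 and 0.157 CP10K in SIRT7 KO 1 to SIRT7 KO 3 (1, 1 and 2 UMIs). The genotypes did not overlap, and the residual UMIs were few. Pcyt2, a phospholipid synthesis enzyme encoded next to Sirt7 (Pcyt2 chr11:120610087-120617936 and Sirt7 chr11:120618372-120625240, both on the minus strand, mm10), was also lower in every SIRT7 KO mouse, with 0.352, 0.329 and 0.595 CP10K in WT and 0.148, 0.0452 and 0 CP10K in SIRT7 KO. Both genes fell under the filter of a mean of 0.5 CP10K and were not tested.

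Gene levels were then compared between genotypes by mouse means. WT 1, with 9 members, was under the minimum of 10 and did not enter the test, so 2 WT mice were set against 3 SIRT7 KO mice with limma on log2(CP10K + 0.5). In cDC1 of SIRT7 KO mice, interferon-inducible genes (Bst2, Ifitm3, Ifi203), lysosomal proteases (Ctsb, Ctsd) and genes typical of macrophages (C1qa, C1qc, Slc40a1, Fcer1g) were higher, and the hepatocyte enzymes Car3 and Sult2a8 were lower. These 11 genes were 0.408% of the 2696 genes tested, 9 of them higher (0.334%) and 2 lower (0.0742%), at a Benjamini-Hochberg adjusted p under 0.05. WT 2 and WT 3 held under 0.5 CP10K of Ifi203, Ctsd and Slc40a1, so these genes entered the test through the SIRT7 KO mice. Sult2a8 was under 0.5 CP10K in each SIRT7 KO mouse and entered through the WT mice. For these genes the call and the filter are not independent. At an unadjusted p under 0.05 there were 142 genes, and the median log2 fold change of all genes was -0.01. Without a minimum of members, so with all 6 mice, 10 of 2709 genes passed (0.369%), and 7 of the 11 were among them. Leaving out WT 2 set WT 3 alone against the SIRT7 KO mice, with WT 3 assumed to vary like them, and left 0 genes past the threshold in limma (50 at an unadjusted p under 0.05). Leaving out SIRT7 KO 1 gave 40 genes. All 3 SIRT7 KO mice lay above all 3 WT mice in 141 of the genes tested (5.23%) and below them in 161 (5.97%).

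**Figure D3:**
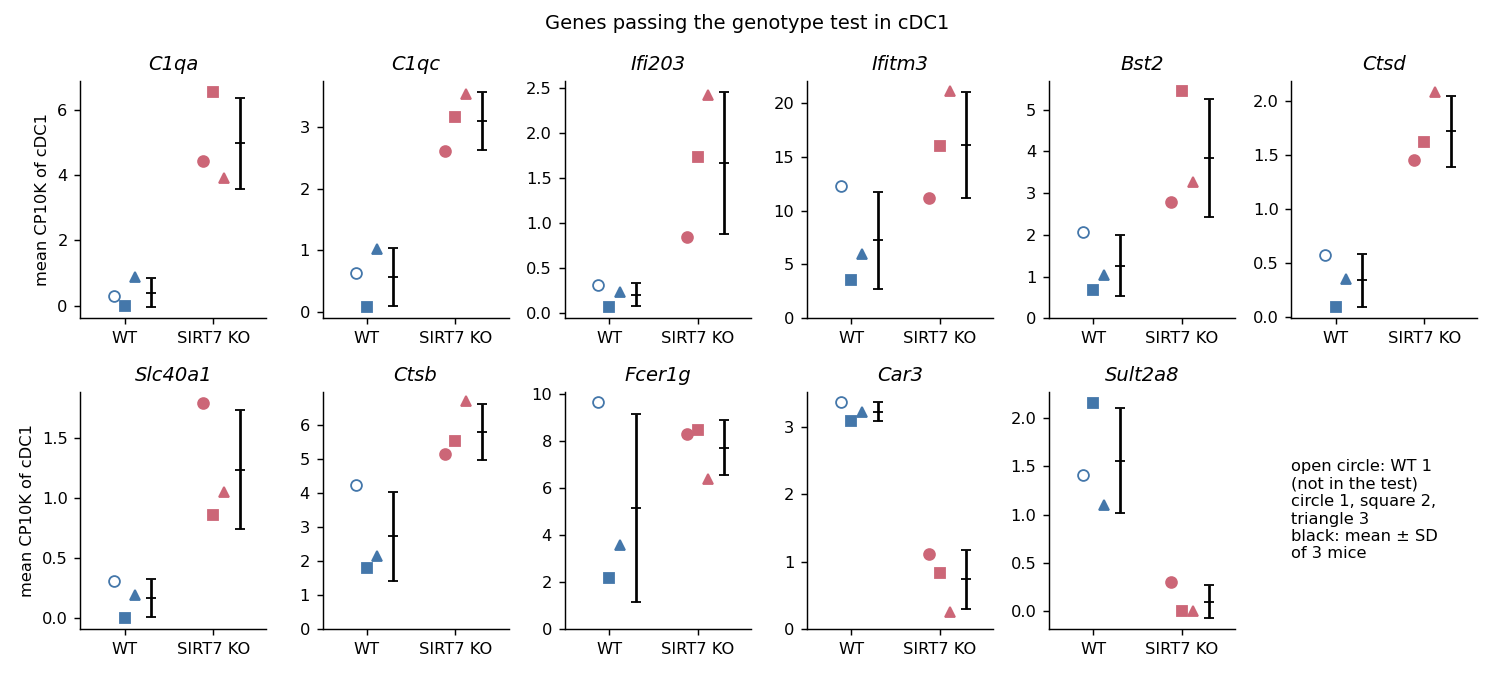
Mean CP10K of the 11 genes past the threshold in the cDC1 of each mouse, 1 panel per gene; the open circle is WT 1, which was not in the test, and black marks give the mean ± SD of 3 mice. C1qa lay at 3.92 CP10K or more in each SIRT7 KO mouse and at 0.874 CP10K or less in each WT mouse, while in Ifitm3 and Fcer1g WT 1 overlapped the SIRT7 KO mice.

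Interferon-inducible genes made up the first group. Bst2, which encodes the membrane protein tetherin that holds budding viruses at the cell surface (chr8:71534255-71537456, minus strand), was at 2.08, 0.669 and 1.04 CP10K in WT 1 to WT 3 and at 2.79, 5.44 and 3.27 CP10K in SIRT7 KO 1 to SIRT7 KO 3. Every SIRT7 KO mouse was above every WT mouse, and the log2 fold change was 1.65 (SE 0.29, limma adjusted p = 0.0242). Ifitm3, which blocks virus entry at endosomes, was at 12.3, 3.54 and 5.94 CP10K in WT and at 11.2, 16.0 and 21.1 CP10K in SIRT7 KO. It rose by 1.66 (SE 0.28, limma adjusted p = 0.0242) over the 2 WT mice tested, but WT 1 overlapped the SIRT7 KO mice. Ifi203, a nucleic acid-binding protein of the p200 family, was at 0.312, 0.0580 and 0.230 CP10K in WT and at 0.843, 1.73 and 2.42 CP10K in SIRT7 KO, with no overlap (log2 fold change 1.69, SE 0.32, limma adjusted p = 0.0247). With all 6 mice, Ifi203 passed (limma adjusted p = 0.0119), whereas Bst2 and Ifitm3 did not (limma adjusted p = 0.0603 and 0.663). Mndal, a second p200 gene whose model overlaps that of Ifi203 on chromosome 1, so that reads may be split between them, was at 1.04, 0.561 and 0.889 CP10K in WT and at 1.65, 2.77 and 3.85 CP10K in SIRT7 KO (limma adjusted p = 0.0794). Mndal was chosen after its values were seen.

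The promoters of these 3 genes are shown because they were called together, with 250 bases before the RefSeq start (GRCm38.p6, minus strand, written 5′ to 3′ along the gene). Capitals mark the motif GAAANNGAAA, the core of the interferon-stimulated response element, which was searched on both strands. Ifi203 has 2 annotated starts, and the one with a match is given.
Bst2 chr8:71537473-71537722: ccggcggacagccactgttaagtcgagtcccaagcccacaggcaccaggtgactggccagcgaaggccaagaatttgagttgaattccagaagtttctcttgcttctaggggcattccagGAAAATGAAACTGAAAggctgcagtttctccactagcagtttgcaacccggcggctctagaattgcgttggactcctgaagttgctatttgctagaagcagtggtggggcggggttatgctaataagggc
Ifi203 chr1:173942493-173942742: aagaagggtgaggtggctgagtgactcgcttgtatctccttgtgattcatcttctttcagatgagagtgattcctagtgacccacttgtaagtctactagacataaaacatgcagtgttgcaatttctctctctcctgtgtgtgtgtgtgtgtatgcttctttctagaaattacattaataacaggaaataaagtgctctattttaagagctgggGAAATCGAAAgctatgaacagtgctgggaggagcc
Ifitm3 chr7:141010745-141010994: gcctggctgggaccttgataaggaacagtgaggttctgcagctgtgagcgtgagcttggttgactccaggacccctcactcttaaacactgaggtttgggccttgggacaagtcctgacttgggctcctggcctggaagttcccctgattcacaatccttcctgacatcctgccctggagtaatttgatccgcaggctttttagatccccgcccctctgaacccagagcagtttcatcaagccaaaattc
Bst2 held 2 overlapping matches, starting 130 and 124 bases before the start, Ifi203 held 1 match 35 bases before it, and these letters were not in the Ifitm3 window. The window of the other Ifi203 start had no match. Sult2a8, which was lower in SIRT7 KO, held 1 match 125 bases before 1 of its annotated starts. The windows of C1qc, Ctsd and Fcer1g had no match, and no promoter was available for C1qa, Ctsb, Slc40a1 and Car3. The motif occurred in 821 of 27025 promoters of this length (3.04%), in 80 of 2141 promoters of genes tested in cDC1 (3.74%) and in 14 of the 22 promoters of the interferon-stimulated list (63.6%).

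Of 30 interferon-stimulated genes listed, 10 were tested, Bst2 and Ifitm3 passed higher and 0 passed lower, beside 9 of all 2696 genes higher (0.334%). The fold change was above 0 in 8 of the 10, and in 1302 of 2693 genes outside the selection. The median of the 10 was 1.03 (log2) beside -0.01 for all genes. Irf7, the transcription factor that amplifies the interferon response, was at 0, 0.546 and 0.910 CP10K in WT and at 0.718, 2.97 and 3.45 CP10K in SIRT7 KO, so that SIRT7 KO 1 lay within the WT range (log2 fold change 1.07, limma adjusted p = 0.910). Ifi27l2a was at 5.40, 0.141 and 2.76 CP10K in WT and at 4.13, 11.4 and 17.9 CP10K in SIRT7 KO (limma adjusted p = 0.926). Within these 10 genes SIRT7 KO 1 was often the lowest of its group, as in Irf7, Ifi27l2a, Isg15 and Bst2. The transcription factor Irf1 was at 0.379, 1.22 and 0.507 CP10K in WT and at 0.501, 1.05 and 0.239 CP10K in SIRT7 KO, which overlap (log2 fold change -0.33, limma adjusted p = 0.986). In Kupffer cells, taken as cells with Clec4f and Vsig4, Bst2 was at 3.32, 3.18 and 2.84 CP10K in WT and at 4.59, 8.92 and 10.0 CP10K in SIRT7 KO, the same order of the genotypes as in cDC1. In the Cd209a cells Bst2 was at 2.32, 4.46 and 3.17 CP10K in WT and at 3.18, 4.99 and 3.41 CP10K in SIRT7 KO, which overlap. Plasmacytoid cell markers, a list that includes Bst2 and in which Siglech is at 0 by the selection, summed to 2.56, 1.36 and 2.27 CP10K in the members of WT mice and to 5.13, 9.13 and 4.44 CP10K in those of SIRT7 KO mice, and their part in the Bst2 result was not tested.

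Lysosomal and macrophage genes made up the second group. Ctsd, encoding the aspartic protease cathepsin D, was at 0.573, 0.0853 and 0.353 CP10K in WT and at 1.45, 1.62 and 2.08 CP10K in SIRT7 KO, with no overlap (log2 fold change 1.64, SE 0.28, limma adjusted p = 0.0242). Ctsb, encoding the cysteine protease cathepsin B, was at 4.23, 1.79 and 2.16 CP10K in WT and at 5.15, 5.53 and 6.72 CP10K in SIRT7 KO (1.35, SE 0.24, limma adjusted p = 0.0242). C1qa, a chain of the complement protein C1q that macrophages secrete, was at 0.312, 0 and 0.874 CP10K in WT and at 4.44, 6.55 and 3.92 CP10K in SIRT7 KO (2.69, SE 0.41, limma adjusted p = 0.0247). All 3 genes were higher in every SIRT7 KO mouse than in any WT mouse. C1qc, a further chain of C1q, was at 0.624, 0.0692 and 1.01 CP10K in WT and at 2.61, 3.16 and 3.55 CP10K in SIRT7 KO (1.95, SE 0.36, limma adjusted p = 0.0381). Slc40a1, the iron exporter ferroportin, was at 0.312, 0 and 0.190 CP10K in WT and at 1.80, 0.863 and 1.05 CP10K in SIRT7 KO (1.53, SE 0.29, limma adjusted p = 0.0247). Fcer1g was at 9.65, 2.15 and 3.58 CP10K in WT and at 8.30, 8.44 and 6.37 CP10K in SIRT7 KO (1.31, SE 0.25, limma adjusted p = 0.0247), with WT 1 above all SIRT7 KO mice. Of the 9 genes tested from a list for uptake of dead cells and antigen, Ctsb, Ctsd and Fcer1g passed higher and 0 lower, with a median of 0.44. Among all 2696 genes tested, 9 passed higher (0.334%). Without the members that held C1q or Cd5l UMIs, 7 genes of this list were tested, and Ctsd was no longer among them. Of these 7 genes 0 passed higher, and their median was 0.07. Lgals3, a galectin, was at 8.29, 5.00 and 4.82 CP10K in WT and at 6.42, 9.004 and 9.33 CP10K in SIRT7 KO and did not pass (limma adjusted p = 0.600). The scavenger receptor Cd36 was at 2.50, 1.81 and 1.84 CP10K in WT and at 1.90, 1.502 and 1.80 CP10K in SIRT7 KO.

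Markers of Kupffer cells were also higher in SIRT7 KO, but their list shares C1qa, C1qc and Slc40a1 with this second group. The listed Kupffer and macrophage markers summed to 4.72, 3.29 and 5.36 CP10K in the members of WT 1 to WT 3 and to 19.8, 21.5 and 17.4 CP10K in those of SIRT7 KO 1 to SIRT7 KO 3. Of these markers 8 were tested, and the 3 that passed higher were the shared genes, beside 9 of all 2696 genes tested (0.334%). The sums include the shared genes too, and the defining genes Clec4f and Vsig4 are at 0 by the selection. Cells with Clec4f made up 4.99%, 5.04% and 20.3% of all cells in WT and 44.6%, 25.4% and 13.9% in SIRT7 KO. T cells should lack C1qa and were taken as cells with Cd3e and with H2-Ab1, Cd79a, Clec4f, Vsig4, Xcr1 and Clec9a at 0. In them C1qa was at 0.0235, 0 and 0.224 CP10K in WT and at 0.531, 0.116 and 0 CP10K in SIRT7 KO. These levels were below the cDC1 of the same SIRT7 KO mouse in each case. Members had to hold H2-Ab1 and these T cells had to lack it, so the classes were not selected alike and free RNA was not tested. The median depth of T cells was 1239, 2094 and 3241 UMIs in SIRT7 KO 1 to SIRT7 KO 3. B cells held 0.152, 0 and 0.0833 CP10K of C1qa in WT and 1.79, 0.493 and 0 CP10K in SIRT7 KO. In the Cd209a cells C1qa was at 0, 0.168 and 0.0714 CP10K in WT and at 1.28, 1.68 and 2.44 CP10K in SIRT7 KO, and Ctsd was at 0.187, 0.221 and 0.173 CP10K in WT and at 2.05, 1.57 and 1.04 CP10K in SIRT7 KO. Both genes were thus higher in every SIRT7 KO mouse in these cells too, and the part of macrophage RNA in either class was not tested. Members with a UMI of C1qa, C1qb, C1qc or Cd5l were 22.2%, 15.4% and 18.1% in WT and 41.1%, 27.8% and 21.4% in SIRT7 KO.

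The comparison was repeated without those members, a choice made after the data were seen. Then 10 of 2668 genes passed (0.375%), of which the 4 higher were Ifitm3 (log2 fold change 1.71), Bst2 (1.57), Mndal (1.45) and Ifi203 (1.42). The lysosomal gene Ctsb was at 0.02 (limma adjusted p = 0.997) in this set. The interferon-stimulated list kept a median above 0, at 0.81. The 6 lower genes were the hepatocyte transcripts Sult2a8, Car3, Sult3a1, Gsta3, Aldh1a1 and Sephs2.

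A second repeat, likewise chosen later, kept the 190 members with 2 or more UMIs of Xcr1 plus Clec9a and lowered the minimum to 5 members, which brought in all 6 mice. In them 11 of 2585 genes passed (0.426%), and 1 of these was among the 11 of the full set. The single gene that rose was Plac8, a small cysteine-rich protein of immune cells, with a log2 fold change of 1.21 (limma adjusted p = 0.0393). Cd207, the lectin langerin that marks a subset of cDC1, fell by 1.39 (limma adjusted p = 0.0357). In all members Cd207 was at 0.871, 1.08 and 1.39 CP10K in WT and at 0.337, 0.174 and 0.0575 CP10K in SIRT7 KO, with no overlap (log2 fold change -1.34, limma adjusted p = 0.0794), and Plac8 was at 3.39, 1.43 and 4.12 CP10K in WT and at 5.38, 9.57 and 5.33 CP10K in SIRT7 KO (1.23, limma adjusted p = 0.689). The other 9 lower genes were the liver transcripts Car3, Sult2a1, Sult3a1, Gsta3, Adh1, Akr1c6, Bhmt, Serpina1c and Aldh1a1. In this set Bst2 was at 0.85 (limma adjusted p = 0.482), Ifitm3 at 0.88 (limma adjusted p = 0.466), Ifi203 at 0.98 (limma adjusted p = 0.303) and C1qa at 0.94 (limma adjusted p = 0.620), all on the log2 scale and none past the threshold. Ctsb turned to -0.45. The interferon-inducible genes thus stayed above 0 in every set of members shown. The last set also brought WT 1 into the test, where Bst2 and Ifitm3 lost their calls with all members as well. For Bst2 and Ifitm3 the effect of the member set and that of WT 1 cannot be told apart. Ifi203 passed with all 6 mice and all members, but not with all 6 mice and the members of this set.

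**Figure D4:**
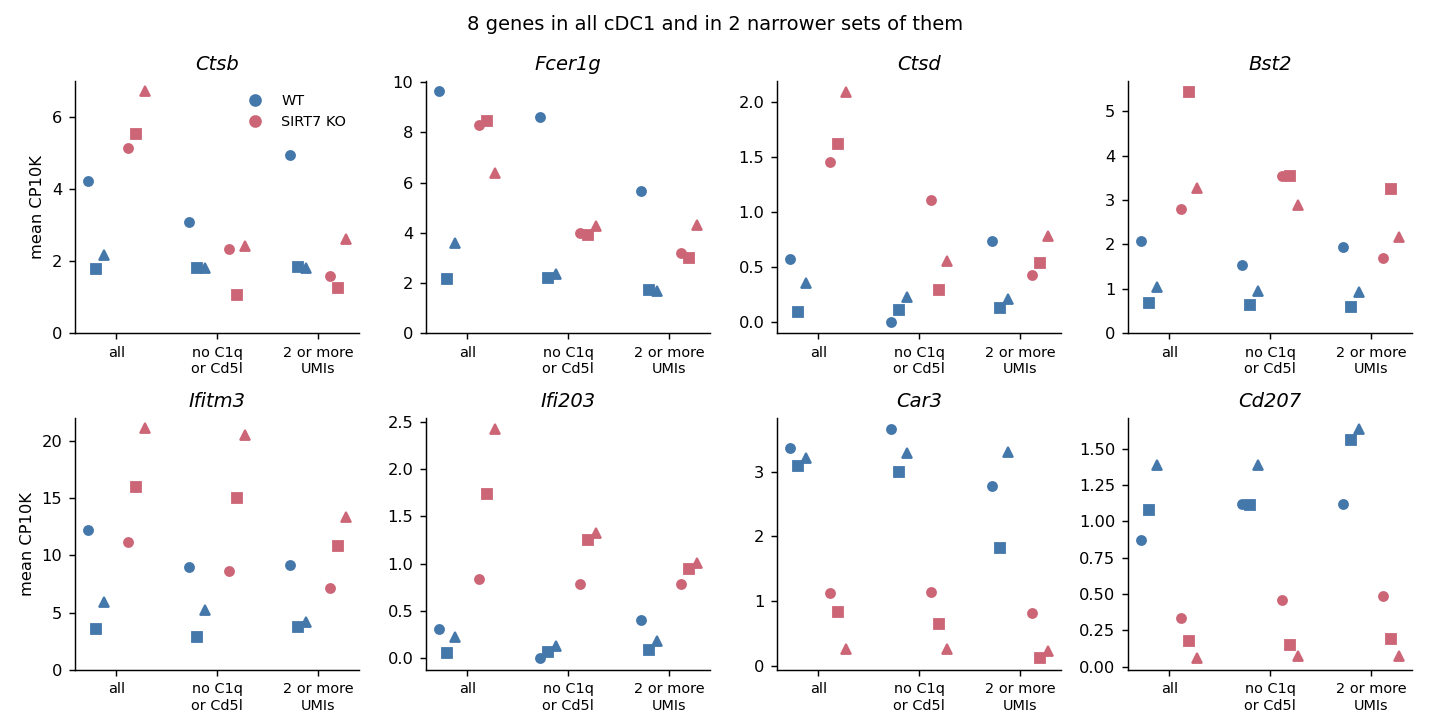
Mean CP10K of 8 genes in each mouse for all members, members without UMIs of C1qa, C1qb, C1qc or Cd5l, and members with 2 or more UMIs of Xcr1 plus Clec9a; the colour gives the genotype, and circle, square and triangle stand for mouse 1, 2 and 3. Cd207 was lower in each SIRT7 KO mouse among all members, and the log2 fold change of Ctsb was 1.35 in all members and -0.45 in those with 2 or more UMIs.

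Hepatocyte transcripts made up the genes that were lower. Car3, a carbonic anhydrase that hepatocytes make in large amounts, was at 3.37, 3.09 and 3.22 CP10K in the cDC1 of WT mice and at 1.12, 0.834 and 0.258 CP10K in those of SIRT7 KO mice, with no overlap (log2 fold change -1.63, SE 0.31, limma adjusted p = 0.0247). Sult2a8, a bile acid sulfotransferase of hepatocytes, was at 1.40, 2.16 and 1.10 CP10K in WT and at 0.298, 0 and 0 CP10K in SIRT7 KO (-1.82, SE 0.34, limma adjusted p = 0.0247). T cells of the same livers showed the same order of the genotypes, with 7.96, 8.15 and 7.35 CP10K of Car3 in WT and 3.23, 1.24 and 1.76 CP10K in SIRT7 KO. The listed hepatocyte markers summed to 94.1, 54.0 and 51.4 CP10K in the cDC1 of WT mice and to 60.6, 15.1 and 54.3 CP10K in those of SIRT7 KO mice, which overlap. Of 11 hepatocyte markers tested, 1 passed lower, beside 2 of all 2696 genes (0.0742%), and their median was -0.54. The next genes by p that were lower, none past the threshold, were Aldh1a1 (-2.003, limma adjusted p = 0.101), Sephs2 (-1.19, limma adjusted p = 0.176) and Sult2a1 (-2.12, limma adjusted p = 0.199). The part of hepatocyte RNA in these values was not tested.

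Neutrophil transcripts stood out in a single library. The listed neutrophil markers summed to 0, 0 and 0.163 CP10K in the members of WT 1 to WT 3, to 129 CP10K in SIRT7 KO 1, and to 1.36 and 0.228 CP10K in SIRT7 KO 2 and SIRT7 KO 3. S100a8 or S100a9 had a UMI in 33.9% of the members of SIRT7 KO 1. Without members with these UMIs 7 genes passed.

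Genes of cDC1 identity leaned lower in SIRT7 KO without passing the test. Of 26 listed genes 23 were tested, 0 passed and 3 had an unadjusted p under 0.05, beside 141 of 2693 genes outside the selection. The fold change was below 0 in 19 of the 23, with a median of -0.35, and in 1391 of the 2693. In 5 of the 23 all 3 SIRT7 KO mice lay below all 3 WT mice, compared with 5.97% of all genes tested. Irf8 was at 15.5, 16.4 and 17.4 CP10K in WT and at 13.98, 12.5 and 12.8 CP10K in SIRT7 KO, which do not overlap (log2 fold change -0.35, SE 0.20, limma adjusted p = 0.928). Ppt1, a lysosomal thioesterase, was at 9.01, 13.5 and 12.6 CP10K in WT and at 7.23, 8.25 and 7.69 CP10K in SIRT7 KO (-0.72, SE 0.21, limma adjusted p = 0.286). Naaa was at 11.8, 10.9 and 8.57 CP10K in WT and at 7.09, 7.19 and 5.99 CP10K in SIRT7 KO (-0.49, SE 0.22, limma adjusted p = 0.874). Cst3, at 147, 211 and 170 CP10K in WT and 164, 183 and 172 CP10K in SIRT7 KO, overlapped fully (-0.13). Id2, the regulator that cDC1 share with other innate lymphoid and myeloid cells, was at 16.6, 22.0 and 19.5 CP10K in WT and at 15.9, 16.2 and 18.9 CP10K in SIRT7 KO. Among members with 2 or more UMIs of Xcr1 plus Clec9a, the median of the list was -0.16.

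The genes used for the selection are given as a description. Xcr1 was at 3.54, 5.35 and 6.33 CP10K in WT and at 3.88, 4.18 and 3.45 CP10K in SIRT7 KO. Clec9a was at 3.90, 3.26 and 3.70 CP10K in WT and at 3.66, 3.76 and 2.19 CP10K in SIRT7 KO. H2-Ab1, a chain of the MHC class II molecule I-A, was at 91.4, 87.8 and 79.4 CP10K in WT and at 69.2, 87.7 and 67.5 CP10K in SIRT7 KO. In all 3 the genotypes overlapped.

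No antigen presentation gene passed the test. Of the MHC class II list 12 genes were tested, with log2 fold changes from -0.54 to 0.77 and a median of -0.08, which was -0.21 among members with 2 or more UMIs and -0.27 after thinning. The chain gene H2-Aa was at 81.4, 76.4 and 76.7 CP10K in WT and at 62.7, 70.2 and 78.2 CP10K in SIRT7 KO. Cd74, the invariant chain that guards the class II groove, was at 222, 207 and 194 CP10K in WT and at 134, 163 and 231 CP10K in SIRT7 KO. Both genes overlapped between the genotypes. Of the MHC class I and cross-presentation list 22 genes were tested, with log2 fold changes from -0.42 to 0.64 and a median of -0.09. B2m, the light chain of class I, was at 8.19, 15.5 and 12.2 CP10K in WT and at 12.5, 16.1 and 15.8 CP10K in SIRT7 KO, and the heavy chain H2-K1 was at 12.2, 16.5 and 12.1 CP10K in WT and at 12.2, 16.6 and 16.7 CP10K in SIRT7 KO.

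For sensing, co-stimulation and maturation few genes were measured well enough. Of the nucleic acid and pathogen sensing list 6 genes were tested and 0 passed (median -0.17). Tlr3 was at 3.75, 2.86 and 3.34 CP10K in WT and at 2.06, 3.08 and 1.93 CP10K in SIRT7 KO, with SIRT7 KO 2 inside the WT range. Of the co-stimulation and checkpoint list 5 genes were tested and 0 passed (median 0.02), and Cd70, Il12a and Il6 had no UMI in any member. Cd86, a ligand for CD28 on T cells, was at 0.723, 0.610 and 1.05 CP10K in WT and at 0.834, 0.884 and 1.94 CP10K in SIRT7 KO. Of the maturation and migration list 14 genes were tested and 0 passed. Its median was -0.23, and -0.36 without the members that held C1q or Cd5l UMIs. It was 0.35 without WT 2, 0.18 among members with 2 or more UMIs and 0.01 after thinning. Its direction thus turned with a single library, and also with the members and the depth used. The cytokine subunit Il12b was at 3.08 CP10K in WT 2 and at 0 in the other 5 mice, and Ccr7, the receptor that guides mature dendritic cells to lymph nodes, was at 1.53 CP10K in WT 2, at 0.0351 CP10K in SIRT7 KO 1 and at 0 elsewhere. The maturation values of WT therefore rested on a few cells of WT 2. After thinning to 1000 UMIs, 2 of 313 members (0.639%) had a Ccr7 UMI.

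Transcripts of a few G2/M phase genes were counted per cell. A member thinned to 1000 UMIs was counted as positive with 2 or more UMIs over Mki67, Top2a, Cdk1, Ccnb2, Birc5 and Nusap1. This held for 51 of 313 members (16.3%) after thinning and for 84 of 314 (26.8%) before. By mouse it held for 0 of 9 in WT 1, which allows a share of up to 33.3%, for 0 of 13 in WT 2, which allows up to 23.1%, and for 21 of 94 (22.3%, Wilson interval 15.1 to 31.8) in WT 3. In SIRT7 KO it held for 17 of 112 (15.2%, 9.70 to 23.0), 10 of 71 (14.1%, 7.83 to 24.0) and 3 of 14 (21.4%, 7.57 to 47.6). The SIRT7 KO mice lay between WT 2 and WT 3 (difference of means 5.73 points, exact permutation test over the 5 mice with 10 or more members, p = 0.8, smallest possible 0.2), and without WT 2 the difference was -5.44 points. Of the S phase list 6 genes were tested (median 0.10) and of the G2/M list 16 (median 0.10, but 0.76 among members with 2 or more UMIs), with 0 passing in either. Mki67, a marker of cycling cells, was at 0, 1.32 and 0.933 CP10K in WT and at 1.01, 0.872 and 1.16 CP10K in SIRT7 KO. No background share was measured and the part of free RNA in these counts was not tested, so they do not give the share of cDC1 in cycle.

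The study concerns ER stress, the integrated stress response and growth signals, and their genes were looked at in cDC1 as well. Of the ER chaperone list 19 genes were tested and 0 passed (median -0.06), and Hspa5, the chaperone BiP, was at 4.09, 4.21 and 5.79 CP10K in WT and at 3.25, 3.86 and 5.68 CP10K in SIRT7 KO. Of the integrated stress response list 10 were tested and 0 passed (median -0.11). Atf3, at 0.502, 0 and 0.0740 CP10K in WT and at 0.138, 0.0614 and 0.361 CP10K in SIRT7 KO, and Ddit3, which encodes the stress factor CHOP, at 0, 0.186 and 0.132 CP10K in WT and at 0.223, 0.109 and 0 CP10K in SIRT7 KO, were both under the filter. The transcription factor Myc was at 0.447, 0.631 and 0.497 CP10K in WT and at 0.336, 0.409 and 0.374 CP10K in SIRT7 KO, without overlap but under the filter. Igf1, the growth factor of the somatotroph axis, was at 0.771, 0.551 and 0.954 CP10K in WT and at 1.98, 0.515 and 0.828 CP10K in SIRT7 KO (log2 fold change 0.27, limma adjusted p = 0.993). Of 80 ribosomal protein genes 0 passed (median 0.05), and of 41 respiratory chain genes 0 passed (median -0.03).

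Among 17 lipid handling genes tested, 0 passed and 15 had a fold change above 0, with a median of 0.36, where 1302 of 2693 genes outside the selection were above 0. An unadjusted limma p under 0.05 was found for 6 of the 17, all higher, beside 141 of the 2693, 63 of them higher. The median of this list was -0.06 among members with 2 or more UMIs of Xcr1 plus Clec9a. It was 0.28 without the members that held C1q or Cd5l UMIs and 0.29 after thinning. The part of macrophage RNA in these values was not tested. Apoe, the apolipoprotein that macrophages and hepatocytes secrete, was at 15.1, 8.21 and 7.93 CP10K in WT and at 36.1, 11.55 and 16.2 CP10K in SIRT7 KO, with overlap at SIRT7 KO 2 (log2 fold change 1.18, limma adjusted p = 0.874). Plin2, the coat protein of lipid droplets, was at 3.06, 1.79 and 1.51 CP10K in WT and at 1.87, 1.30 and 1.13 CP10K in SIRT7 KO. Of 15 immediate-early genes, which respond to cell dissociation, 0 passed (median 0.11).

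**Figure D5:**
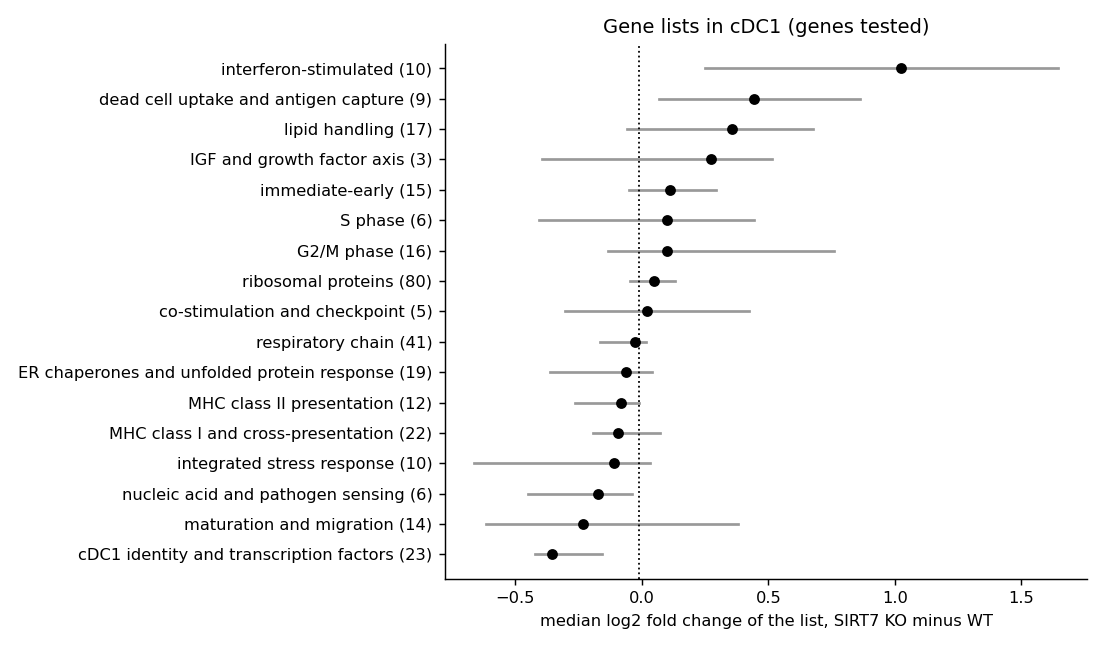
Median log2 fold change, SIRT7 KO minus WT, of the tested genes of 17 lists in cDC1; the bar is the range over the settings tried and the dotted line the median of all genes tested. The interferon-stimulated list lay highest at 1.03 (range 0.25 to 1.65), and the cDC1 identity list lay at -0.35 (range -0.42 to -0.16).

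Whether the genotypes differed more in cDC1 than in Cd209a cells was tested by taking, within each mouse, the log2 level in cDC1 minus that in the Cd209a cells, over the 6 mice with at least 8 cells of both. Of 2746 genes 0 passed (0%), with 142 at an unadjusted p under 0.05 and a smallest limma adjusted p of 0.870. Ifi203 differed between the classes by 1.49 (SE 0.42), Bst2 by 1.12 (SE 0.47) and Ifitm3 by 0.98 (SE 0.41) on the log2 scale, all larger in cDC1 and all at a limma adjusted p of 0.870. Ctsd (-0.10, SE 0.39) and C1qc (-0.03, SE 0.41) differed by less than their error. For no gene was the genotype difference in cDC1 thus shown to depart from that in the Cd209a cells.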

How the data were processed

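Livers of 3 WT and 3 SIRT7 KO mice were profiled by 10x Genomics Chromium 3' single-cell sequencing. Per the labels, reads were processed with Cell Ranger 6.0.0 on mm10. After dropping gene-poor cells and those rich in mitochondrial RNA, the authors brought every cell to a total of 10000 and deposited natural log values, ln(CP10K + 1). Barcode endings gave the mouse and genotype. The natural log was undone, and UMIs were recovered as whole multiples of the smallest step of each cell.

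The members, gene lists and comparisons were chosen with earlier results of these data known. Mean CP10K over the members of each mouse with at least 10 members was tested on log2(CP10K + 0.5) for genes whose mean reached 0.5 CP10K. This filter used the mean over the tested mice of both genotypes, so a gene high in only 1 genotype could pass it. The test was limma's moderated linear model, two-sided, with lmFit and with eBayes using trend and robust (limma 3.58.1 under R 4.3.3, with statmod 1.5.0). It was adjusted by Benjamini-Hochberg over all genes tested at 0.05. A prior check on simulated data gave all genes the same spread between mice and no difference between mice in RNA of other cells. That check therefore does not cover such differences. A fold change on this scale understates the change of low genes. Shares were compared with two-sided exact permutation tests over mice. P-values measure the spread between these mice. Cells were handled with scanpy 1.11.5, pandas 2.3.3, scipy 1.17.1 and numpy 2.4.6 in Python 3.11.15.

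Genes were named by a rule: the genes of the selection, Sirt7, Igf1, Myc, Atf3, Hspa5, Ddit3 and Pcyt2, every list gene past the threshold, the 4 genes of each list with the highest mean, in each direction the 8 largest changes past the threshold whose mean reached 1 CP10K without genotype overlap, filled up to 5 by lowest p, and the cell markers as levels. Other genes named were chosen after their values were seen. Doublets were left in, since Scrublet marked 46 of 11610 cells (0.396%, 2 of them members), too few for the caller to have worked. The planned comparison with Cd209a cells needed 10 cells of both classes, which left 1 WT mouse, and was run with a minimum of 8. Gene coordinates are those of GENCODE vM21. Promoter sequences come from RefSeq.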

Additional observations from a re-analysis of the deposited data

How the results depend on the processing

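Members were few, WT 1 did not enter the gene test, and a count of genes past the threshold is set by 2 WT mice. In place of the 11 genes of the main comparison, 6 passed with a pseudocount of 0.05 CP10K and 39 with no filter on low genes. There were 0 with a filter of 2 CP10K (31 at an unadjusted p under 0.05), 6 with weights by number of members and 0 with limma without trend and robust steps (152). Of the main 11 genes, these settings kept 6, 11, 0, 4 and 0. Other members gave 0 with at least 20 per mouse (57), 0 with Xcr1 (117), 0 with Xcr1 and Clec9a (25), 6 with Irf8 or Flt3 as well and 4 without the members richest in hepatocyte RNA. Where at least 20 members or both genes were asked for, or WT 2 was left out, WT 3 stood alone, as did WT 2 without WT 3, and the lone mouse was assumed to vary like the SIRT7 KO mice. SIRT7 KO 3 had 14 members, 9 with Xcr1 and 7 with both genes. It therefore fell out where at least 20 members, Xcr1 or both genes were asked for. With Clec9a above 0, 10 genes passed higher and 4 lower, and 9 of the main 11 were among them. Choices made after seeing the data gave 7 without S100a8 or S100a9 UMIs and 1 with members thinned to 1000 UMIs. Of the main 11 genes, 6 were among the former and 0 among the latter. Leaving out a mouse gave 0 to 40 genes, with 0 without WT 2 (50 at an unadjusted p under 0.05), 18 without WT 3, 40 without SIRT7 KO 1 and 1 without SIRT7 KO 2. Of the main 11 genes, 6 were kept with Irf8 or Flt3 as well and 2 without the members richest in hepatocyte RNA. Without SIRT7 KO 1 10 were kept, and without SIRT7 KO 2 0 were. The causes were not tested.

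With the replicate number as a block 44 genes passed (18 higher and 26 lower). Same-numbered mice of the genotypes correlated at 0.113, 0.00898 and 0.0596 in their deviations from the group means, not all over 0.1, so the numbers were not taken to pair the mice.

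Ctsb turned to -0.30 in members with both Xcr1 and Clec9a and to -0.45 in those with 2 or more UMIs of them. The other 10 genes kept their sign in every setting that tested them. The difference in cDC1 share of all cells was +1.42 points with no excluded gene and ran from -2.38 to 1.55 points when a mouse was left out, the highest without WT 3. The difference in members positive for the counted G2/M phase genes ran from -5.44 to 16.9 points. The Ccr7 difference ran from -7.39 to 0.298 points. Without WT 2 these differences were -5.44 and 0.298 points. Against the Cd209a cells 2 genes passed with a pseudocount of 2 CP10K, and 0 in the other settings.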
